A study of Homo sapiens with 4 samples.

Results

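The genes described here are 37 G2 and M phase genes that are neither kinases nor kinesins, taken by gene symbol from the 36601 genes of the count matrices. All 37 were found in each of the 4 libraries and all passed the filter on low counts. Cells that have copied their DNA switch on a shared set of genes in G2, which condense the chromosomes, build the spindle and the kinetochores and then drive anaphase and cytokinesis. Transcription of this set begins in late S phase or early G2 for some members and reaches its height in late G2 and mitosis for others. In cells with intact p53, DNA damage can lower the set through p21 and the DREAM repressor complex, which binds promoters at a short element called CHR.

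U-2 OS, an established osteosarcoma line with wild-type p53, was either left untreated (UT) or given 4 Gy of ionizing radiation (IR), and single sorted cells were sequenced by SORT-seq. Each of 2 experiments gave 1 UT and 1 IR library, all from the same line grown in the same medium. Cells were taken 48 h after IR by the design text and the study's methods, whereas the treatment protocol has 24 h. The comparison asks how these genes respond to IR and where in G2 and M each of them is transcribed.

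The libraries held 247 to 367 cells and 5736339 to 6810079 gene counts, with a median per cell of 15662 and 17627 counts for UT against 20181 and 22035 for IR. All 8 osteosarcoma line markers were detected in every library, with a summed level of 5375 to 5798 CPM, although COL1A2 stayed under 3 CPM. Markers of other types were low, at 35.6 to 42.8 CPM for 6 epithelial genes, 0.682 to 7.78 CPM for 6 blood genes and 1.70 to 3.56 CPM for 4 endothelial genes. Libraries shared 173 to 350 well barcodes, which come from a common plate set.

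Promoters are shown first, because the CHR element that DREAM uses can be read in them. RefSeq (GRCh38.p14) gave windows of 250 bases before and 50 after the start site for 31 of the 37 genes, and none was matched for UBE2C, BIRC5, TPX2, ANP32E, PIMREG and CDCA2. The CHR letters TTTGAA, on either strand (TTCAAA), stood in at least 1 window of 27 of these 31 genes (87.1%), against 18.2% of all 27305 genes with a window and 15.2% of all windows. The CCAAT box, on either strand (ATTGG), which often stands upstream of a CHR and is bound by NF-Y, was found in 22 of the 31 (71.0%), against 39.7% of all genes. Both motifs stood together in the windows of 21 members (67.7%), against 7.26% of all genes. PSRC1, CKAP2, TACC3 and GAS2L3 had no TTTGAA in their windows. The 200 bases before the start site are printed 5′ to 3′ on the gene's strand for MKI67, TOP2A, CDC20 and CKS2. MKI67 and TOP2A were among the genes most reduced after IR, and CKS2 held its level. CDC20 ranked first by some of the measures of late over early cells given below. Capitals mark CHR and CCAAT letters, and in MKI67 the last CHR overlaps an ATTGG by 1 base.
MKI67, chr10:128126424-128126623, minus strand: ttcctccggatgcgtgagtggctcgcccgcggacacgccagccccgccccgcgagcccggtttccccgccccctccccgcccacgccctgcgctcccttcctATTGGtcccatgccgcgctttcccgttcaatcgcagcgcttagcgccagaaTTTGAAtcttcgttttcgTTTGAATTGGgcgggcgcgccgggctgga
TOP2A, chr17:40417897-40418096, minus strand: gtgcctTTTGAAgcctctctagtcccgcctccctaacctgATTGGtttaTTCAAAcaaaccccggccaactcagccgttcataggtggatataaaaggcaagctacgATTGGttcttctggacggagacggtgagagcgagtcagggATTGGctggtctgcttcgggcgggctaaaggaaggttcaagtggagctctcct
CDC20, chr1:43358781-43358980, plus strand: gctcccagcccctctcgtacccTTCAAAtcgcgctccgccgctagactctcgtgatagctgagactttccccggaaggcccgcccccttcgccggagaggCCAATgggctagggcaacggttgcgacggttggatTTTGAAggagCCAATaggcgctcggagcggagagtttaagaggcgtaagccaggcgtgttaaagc
CKS2, chr9:89310995-89311194, plus strand: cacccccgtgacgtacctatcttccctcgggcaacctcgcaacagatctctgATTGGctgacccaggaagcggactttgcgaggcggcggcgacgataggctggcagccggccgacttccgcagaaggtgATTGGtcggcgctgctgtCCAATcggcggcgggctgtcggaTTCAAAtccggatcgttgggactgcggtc
Both genes that were reduced and genes that held therefore carried these letters, and CKS2 has a CHR sequence that starts 29 bases before its start site, as the second one of MKI67 does. A match of letters is a description and not a measurement of binding.

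Levels are given as CPM, counts scaled to 1000000 per TMM-adjusted library total, first for experiment 1 and then for experiment 2, and folds compare IR with UT. Most of the 37 genes were lower after IR. The genes of chromosome structure were reduced the most, led by MKI67, and a small set that included CKS2, RANGAP1 and JPT1 was at or close to its UT level. By edgeR's quasi-likelihood test, 5 members were lower at an adjusted p under 0.05 and 0 were higher, where 0.847% of the 14647 genes tested were lower and 1.63% higher. Without adjustment, 26 members had a p under 0.05 and were lower in IR and 0 were higher, against 8.25% and 10.2% of the genes tested. With the experiment as a block, 32 members were lower and 0 higher, against a background of 12.9% lower and 14.3% higher. The 5 genes that did not pass even then were HMMR, GAS2L3, CKS2, RANGAP1 and JPT1. The 5 calls without the block did not all hold when 1 library was left out. Such a fit leaves 1 library in a group, and fewer of all genes were called lower there too.

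The median log2 fold change of the members was -0.66, against -0.00 for all genes tested, and it was -0.67 in experiment 1 and -0.62 in experiment 2. Within each experiment, 35 of the 37 members were lower in both, as were 36.3% of all genes tested. In 29 members both IR libraries lay below both UT libraries, which 24.2% of all genes did. These values are shares of the library, and IR cells held more counts each. When libraries were scaled by their number of cells instead, the median over all genes moved to 0.54 and that of the members to -0.11, 12 members were above 0, MKI67 alone was called lower, where 0.321% of all genes were, and JPT1 was called higher, where 22.7% were. Relative to the median of all genes the members stood lower under both scalings. Fewer cells in G2 and M and less of these RNAs in each such cell cannot be told apart in such library sums, so the cells are divided further below.

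**Figure D1:**
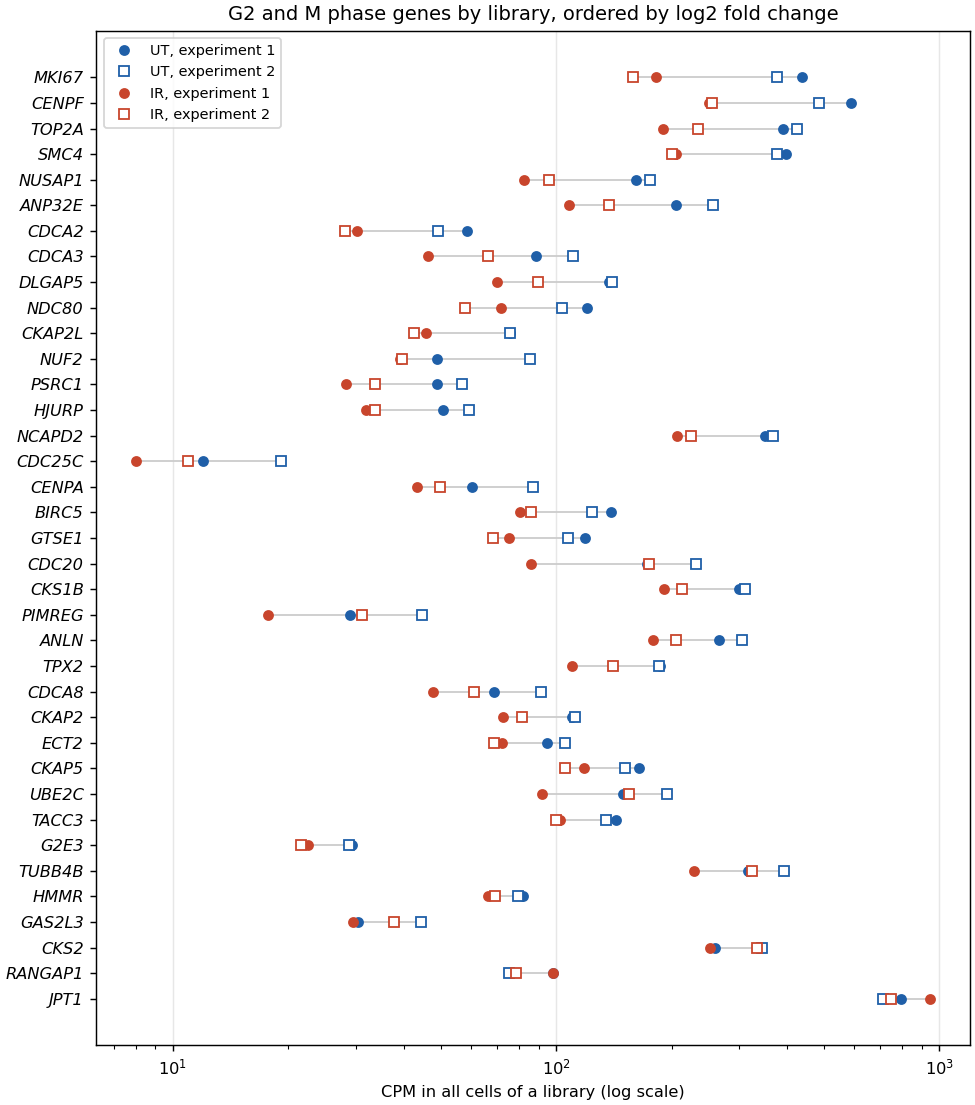
CPM of each of the 37 genes (log scale) in the 4 libraries, with UT in blue, IR in red, experiment 1 as filled circles and experiment 2 as open squares, ordered from the most negative log2 fold change at the top. Red and blue lie apart for MKI67, CENPF, TOP2A and SMC4 and intermingle for GAS2L3, CKS2, RANGAP1 and JPT1.

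The 6 genes of chromosome structure and proliferating chromatin had a median log2 fold change of -0.92, and 3 of them were called. MKI67, which encodes Ki-67, the protein coating mitotic chromosomes (chromosome 10, 128096659 to 128126423, minus strand; positions are those of GENCODE release 44 on GRCh38), stood at 439 and 376 CPM in UT and 183 and 158 CPM in IR. Its log2 fold change was -1.26 (SE 0.17, adjusted p = 0.0225 by edgeR), a level 0.419 of that in UT. TOP2A, topoisomerase II alpha, which untangles sister DNA (chromosome 17, 40388525 to 40417896, minus strand), was at 392 and 425 CPM in UT and 190 and 235 CPM in IR. Both genes were lower in each IR library than in either UT library. SMC4, a core subunit of condensin (chromosome 3, 160399274 to 160434954, plus strand), gave 399 and 376 CPM in UT against 206 and 200 CPM in IR. The log2 fold changes were -0.94 for TOP2A (SE 0.17, adjusted p = 0.0437 by edgeR) and -0.93 for SMC4 (SE 0.15, adjusted p = 0.0338 by edgeR). ANP32E, a chaperone that removes the histone variant H2A.Z, had 206 and 257 CPM in UT and 108 and 137 CPM in IR. CDCA2, which brings protein phosphatase 1 to chromosomes, had 58.5 and 49.1 CPM in UT and 30.2 and 28.1 CPM in IR. ANP32E (-0.91, adjusted p = 0.0604 by edgeR) and CDCA2 (-0.88, adjusted p = 0.0526 by edgeR) thus lay just beyond the threshold, and the condensin subunit NCAPD2 was at -0.73.

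Of the 8 centromere and kinetochore genes, 1 was called without the block and 7 with it, and their median was -0.71. CENPF, a large protein of the outer kinetochore (chromosome 1, 214603185 to 214664574, plus strand), stood at 587 and 487 CPM in UT and 250 and 256 CPM in IR. Its log2 fold change was -1.09 (SE 0.17, adjusted p = 0.0322 by edgeR). The IR libraries were close to each other and well below both UT libraries. The microtubule-binding NDC80 complex subunits NDC80 and NUF2 were at -0.79 and -0.77, the CENP-A chaperone HJURP at -0.75 and the centromeric histone CENPA at -0.66. BIRC5 (survivin) and CDCA8 (borealin), subunits of the chromosomal passenger complex, were at -0.66 and -0.55. RANGAP1, which activates the GTPase of Ran and sits at kinetochores in mitosis (chromosome 22, 41244779 to 41286187, minus strand), had 98.2 and 75.3 CPM in UT and 97.9 and 78.8 CPM in IR. It differed between the experiments and not between the groups, with a log2 fold change of 0.03 (SE 0.20).

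The 12 spindle and microtubule genes had a median of -0.55, with 1 called without the block and 10 with it. NUSAP1, which bundles spindle microtubules (chromosome 15, 41320794 to 41381050, plus strand), fell from 161 and 176 CPM in UT to 82.4 and 95.9 CPM in IR, with a log2 fold change of -0.92 (SE 0.16, adjusted p = 0.0393 by edgeR). Its locus overlaps OIP5-AS1 on the same strand. DLGAP5, a stabilizer of kinetochore fibres, was at -0.79, the spindle proteins CKAP2L and PSRC1 were at -0.78 and -0.77, and GTSE1 was at -0.66. TPX2, the activator of Aurora A, was at -0.57, CKAP2 at -0.53, the microtubule polymerase CKAP5 at -0.50 and its partner TACC3 at -0.46. The genes of this group with the smallest differences were TUBB4B, HMMR and GAS2L3. TUBB4B, a beta tubulin, had 316 and 393 CPM in UT and 228 and 324 CPM in IR. HMMR, a hyaluronan receptor that also acts at the spindle, had 81.8 and 79.3 CPM in UT and 66.4 and 69.4 CPM in IR. The IR libraries of HMMR were below both UT libraries, by a small margin, whereas those of TUBB4B overlapped UT. GAS2L3, a linker of actin and microtubules, had 30.4 and 44.4 CPM in UT and 29.5 and 37.8 CPM in IR, so that its libraries paired by experiment. The log2 fold changes of the 3 were -0.36, -0.25 and -0.15.

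The 7 genes of CDK control and ubiquitin ligases had a median of -0.59, with 0 called without the block and 6 with it. CDCA3, an F-box-like trigger of mitotic entry, had 88.5 and 111 CPM in UT and 46.2 and 66.3 CPM in IR, a log2 fold change of -0.82 (adjusted p = 0.107 by edgeR). CDC20, which activates the anaphase-promoting complex, had 172 and 232 CPM in UT and 85.8 and 175 CPM in IR. It differed by -1.01 on the log2 scale within experiment 1 and by -0.41 within experiment 2, and the IR library of experiment 2 lay above the UT library of experiment 1. CDC25C, the phosphatase that activates CDK1, was the least abundant member, with 12 and 19.2 CPM in UT and 8.02 and 10.9 CPM in IR. UBE2C, the ubiquitin-conjugating enzyme of the same complex, was at -0.48, and the ubiquitin ligase G2E3 was at -0.40. The CDK-binding subunits CKS1B and CKS2 parted. CKS1B had 301 and 311 CPM in UT and 191 and 214 CPM in IR. CKS2 (chromosome 9, 89311195 to 89316703, plus strand) had 259 and 345 CPM in UT and 252 and 333 CPM in IR. The libraries of CKS1B did not overlap, and those of CKS2 ordered by experiment, with log2 fold changes of -0.59 (SE 0.15) and -0.04 (SE 0.21). The 2 are close paralogs, and reads shared between genes were not counted.

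The cytokinesis genes ANLN, a scaffold of the contractile ring, and ECT2, the exchange factor that activates RhoA there, were at -0.57 and -0.51. PIMREG, a mitotic regulator that binds CALM, was at -0.59 with overlapping libraries. JPT1, also called HN1, was the most abundant member (chromosome 17, 75135248 to 75168281, minus strand), with 794 and 713 CPM in UT and 945 and 749 CPM in IR. It was above UT in both experiments, with a log2 fold change of 0.17 (SE 0.18, adjusted p = 0.695 by edgeR). JPT1 reached a mean of 22.4 counts per cell in 1 library, and its locus overlaps SUMO2 on the same strand.

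In the same fit, the 17 other genes of the same cycle list (kinases, kinesins and the rest) had 2 called lower and 16 with the block, with a median of -0.67. KIF11, the motor that separates spindle poles, was at -1.13 and TMPO, a lamina protein, at -1.06. The 43 S phase genes had 5 called lower (37 with the block) and a median of -0.69, led by ATAD2 at -1.03 and the helicase subunit MCM7 at -0.92. Partners of condensin and cohesin (1 of 11 called, 10 with the block) and of the kinetochore (3 of 16, 14 with the block) had medians of -0.69 and -0.67. Subunits and cofactors of the anaphase-promoting complex were at -0.33 with 0 of 17 called and, with the block, 8 lower and 1 higher. The DREAM and MuvB regulators, of which 2 of 12 were called (7 with the block), had a median of -0.41.

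Cells were then placed in the cycle by genes outside the member list. Each cell was thinned to 8000 molecular identifiers, leaving out 25, 11, 16 and 16 cells of UT and IR experiments 1 and 2 that had fewer. It received an early G2 score from 10 genes (among them CDK1, CCNA2 and ESCO2), a late G2 and M score from 10 others (among them CCNB1, PLK1 and KIF20A) and an S phase score. Late-high cells had a late score at or above the 75th percentile of UT cells, early-only cells reached that level for the early score alone, S cells for the S phase score alone, and the rest were called low. This division into 4 was chosen after the data were seen. Low cells made up 49.8% and 41.0% of UT and 72.7% and 71.1% of IR. Late-high cells took 24.3% and 27.2% of UT cells and 14.7% and 20.7% of IR cells, and early-only cells 10.5% and 13.8% in UT against 6.49% and 1.72% in IR. In every class other than low, both IR shares were below both UT shares. The last early-only value stands for 4 cells.

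**Figure D2:**
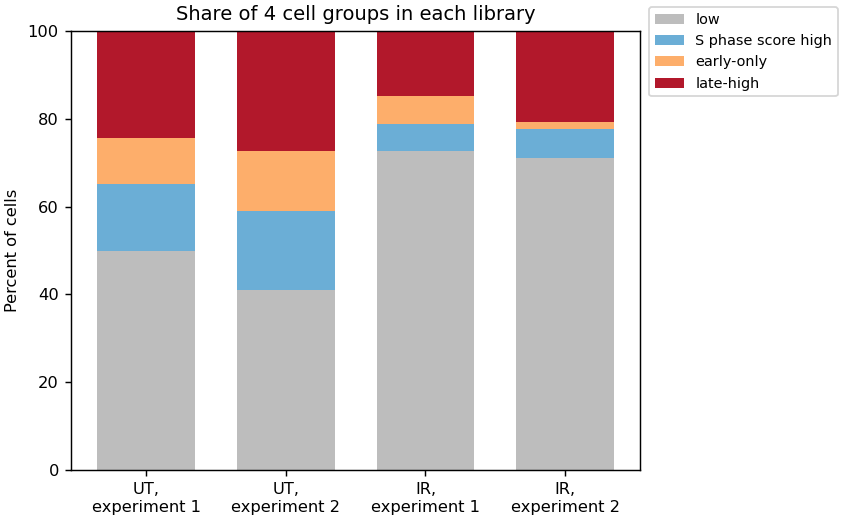
Percent of cells in each of the 4 libraries that were low (grey), high in the S phase score (light blue), early-only (orange) or late-high (red), stacked to 100. Low cells take 72.7% and 71.1% of the IR libraries and 49.8% and 41.0% of the UT libraries.

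Across these groups the members graded from nearly even between early-only and late-high cells to much higher in late-high cells. Late-high cells could also be high in the early score, whereas early-only cells were below the cut for the late score. This definition favours ratios above 0 for any gene that rises with both scores, so the ratio ranks members and does not by itself place them late. All but CKS1B had their highest mean level in late-high cells, and the median log2 ratio of late-high over low cells was 2.10. The groups were set by scores that many members follow, so these levels are in part given by the grouping. The same values over all genes were not computed. The log2 ratio of late-high over early-only cells had a median of 0.59 and was above 0 in all 4 libraries with a mean beyond its SD in 32 members, where 9.19% of 7815 genes did so and 9.48% the reverse. For scale, this ratio ran from 1.01 to 2.07 for the late anchors and from -1.23 to 0.85 for the early anchors, which chose the cells. Leaving out the IR library with 4 early-only cells, 36 members were above 0 in the other 3 libraries. This count did not ask for a mean beyond the SD, and the share of all genes above 0 in those 3 libraries was not computed.

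CDC20 had the highest mean, at 1.51 ± 0.08 (SD, n = 4 libraries). Its level in early-only cells (127, 141, 100.5 and 153 CPM in UT experiments 1 and 2 and IR experiments 1 and 2) was close to that in S cells (132, 154, 114 and 132 CPM), and it stood at 345, 431, 273 and 448 CPM in late-high cells. Its late-high cells thus stood above the other groups in each library. PSRC1 (1.38 ± 0.35), PIMREG (1.29 ± 0.37), GAS2L3 (1.19 ± 0.57), CENPA (1.15 ± 0.58), CKS2 (1.12 ± 0.21), DLGAP5 (1.04 ± 0.22) and CKAP2 (1.00 ± 0.19) followed. At the other end were CKS1B (-0.07 ± 0.31), NDC80 (0.26 ± 0.18), CDCA2 (0.30 ± 0.31), BIRC5 (0.33 ± 0.39), SMC4 (0.34 ± 0.30), RANGAP1 and ANP32E (0.36 each) and TOP2A (0.37 ± 0.14). TOP2A was already at 578, 552, 423 and 494 CPM in early-only cells against 183, 139, 102 and 104 CPM in low cells, and reached 759, 800, 536 and 568 CPM in late-high cells. TOP2A was thus above its low-cell level already in early-only cells, in each library. MKI67 (0.47 ± 0.40) varied more between libraries. Neighbours in this order did not differ beyond their spread, while all 4 values of CDC20 lay above all 4 of TOP2A. The 2 CDK-binding subunits again parted, with CKS2 above CKS1B in each library.

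**Figure D3:**
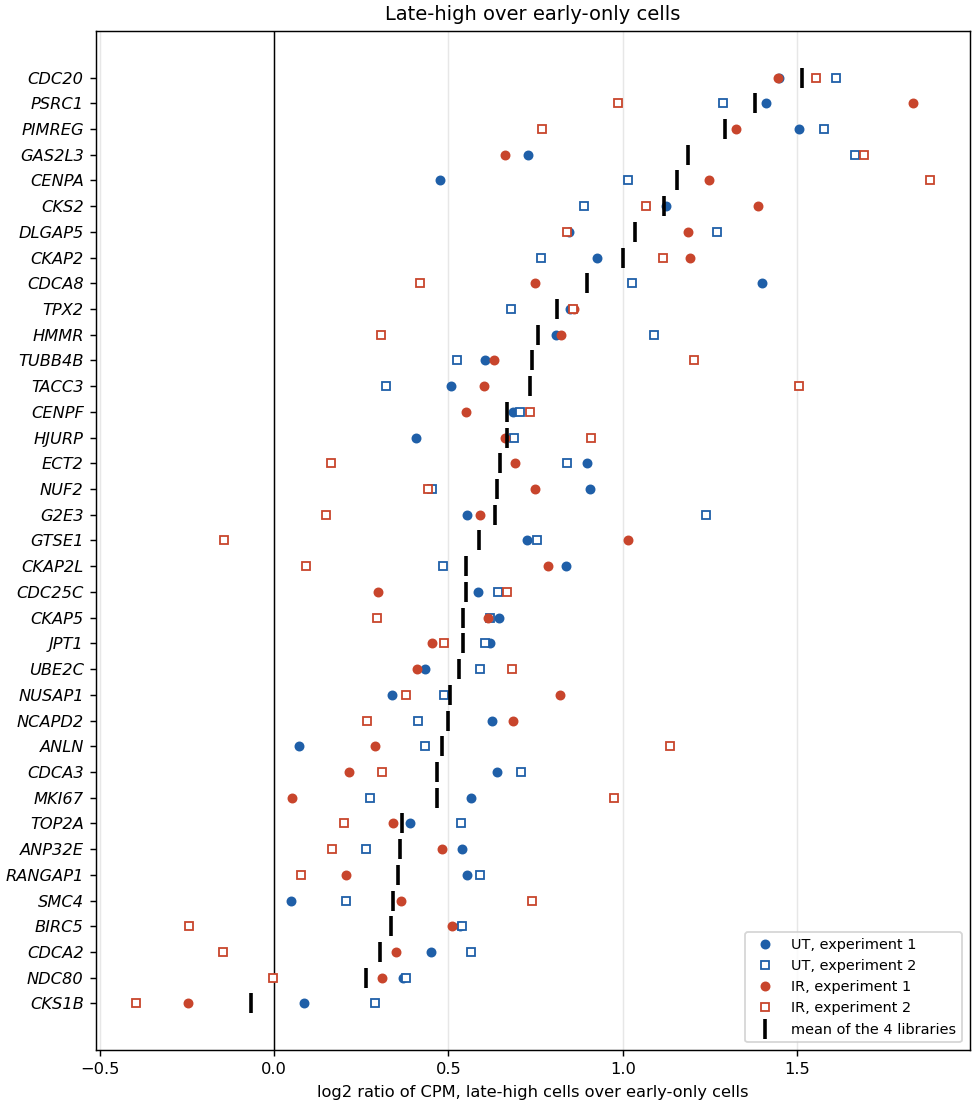
Log2 ratio of CPM in late-high over early-only cells for each gene, with UT in blue, IR in red, experiment 1 as filled circles, experiment 2 as open squares and the mean as a black bar. CDC20 sits at 1.44 to 1.61 in the 4 libraries and CKS1B on both sides of 0, and the open red squares rest on 4 early-only cells.

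A second division, of anchor-high cells alone, gave a noisier order. Anchor-high cells had a mean of both scores at or above the 75th percentile of UT cells, and were 21.9% (73 of 333, exact binomial 95% interval 17.6 to 26.8) and 28.1% (100 of 356, 23.5 to 33.1) of UT cells and 11.3% (26 of 231, 7.49 to 16.1) and 14.7% (34 of 232, 10.4 to 19.9) of IR cells. The intervals cover counting error only. Split at the median of late minus early score, 13 members were higher in the later part and 0 in the earlier part in all 4 libraries with a mean beyond the SD, where 6.92% and 8.62% of 7948 genes were. GAS2L3 gave 1.04, 1.35, 0.40 and 1.12 and CDC20 0.76, 1.09, 0.41 and 0.88 on the log2 scale, in UT experiments 1 and 2 and IR experiments 1 and 2. CDC25C followed at 0.20, 0.66, 0.00 and 1.63. CKS2 (0.91, 0.82, 0.02 and 0.52) and CDCA8 (0.99, 0.72, 0.04 and 0.51) were next, and all 5 had their lowest value in IR experiment 1, where the parts held 15 and 11 cells. CKS1B (0.10, 0.29, -0.73 and 0.00), ANP32E (0.30, 0.23, -0.59 and 0.09) and CDCA3 (0.40, 0.32, -0.94 and 0.27) were lowest. TOP2A (0.37, -0.06, -0.22 and -0.02) and MKI67 (0.16, 0.21, -0.41 and 0.19) also had both signs. Without IR experiment 1, 31 members were higher in the later part. That rule asks for fewer libraries of the same sign, and the share of all genes that met it was not computed.

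Across single cells, the members were also ranked by their correlation with the late score minus that with the early score. The difference was highest for CDC20, with Pearson r of 0.43 for the early and 0.66 for the late score as means of 4 libraries of 231 to 356 cells. It was lowest for UBE2C (0.66 early, 0.55 late) and TOP2A (0.74 early, 0.65 late), and 16 members had the higher r with the late score in all 4 libraries. The share of all genes that did so was not computed. This order differed in part from those above. BIRC5 and ANP32E, low in late-high over early-only cells, were among the 16. HJURP, with a mean log2 ratio of 0.47 in the anchor-high split, had the higher mean r with the early score (0.46 early, 0.40 late). These values are descriptions, and cells of a library share its depth and preparation. Every member correlated negatively with CDKN1A, the gene of p21, with means from -0.07 for RANGAP1 to -0.36 for CDC20. Values in single libraries came close to 0, as for G2E3 at -0.004. How genes outside the list correlated with CDKN1A was not tested, so the sign is not shown to be particular to the members. Over the 666 pairs of members the mean r had a median of 0.29. CENPF with TOP2A (0.64), CENPF with MKI67 (0.62), UBE2C with TOP2A and MKI67 with TOP2A (0.61 each) were the closest pairs. RANGAP1 was the most detached, with a median r of 0.11 and a maximum of 0.22 to any other member, and G2E3 (0.15), JPT1 (0.16) and CDC25C (0.17) had the next lowest medians. G2E3 and CDC25C were sparse, and JPT1 was detected in nearly all cells.

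**Figure D4:**
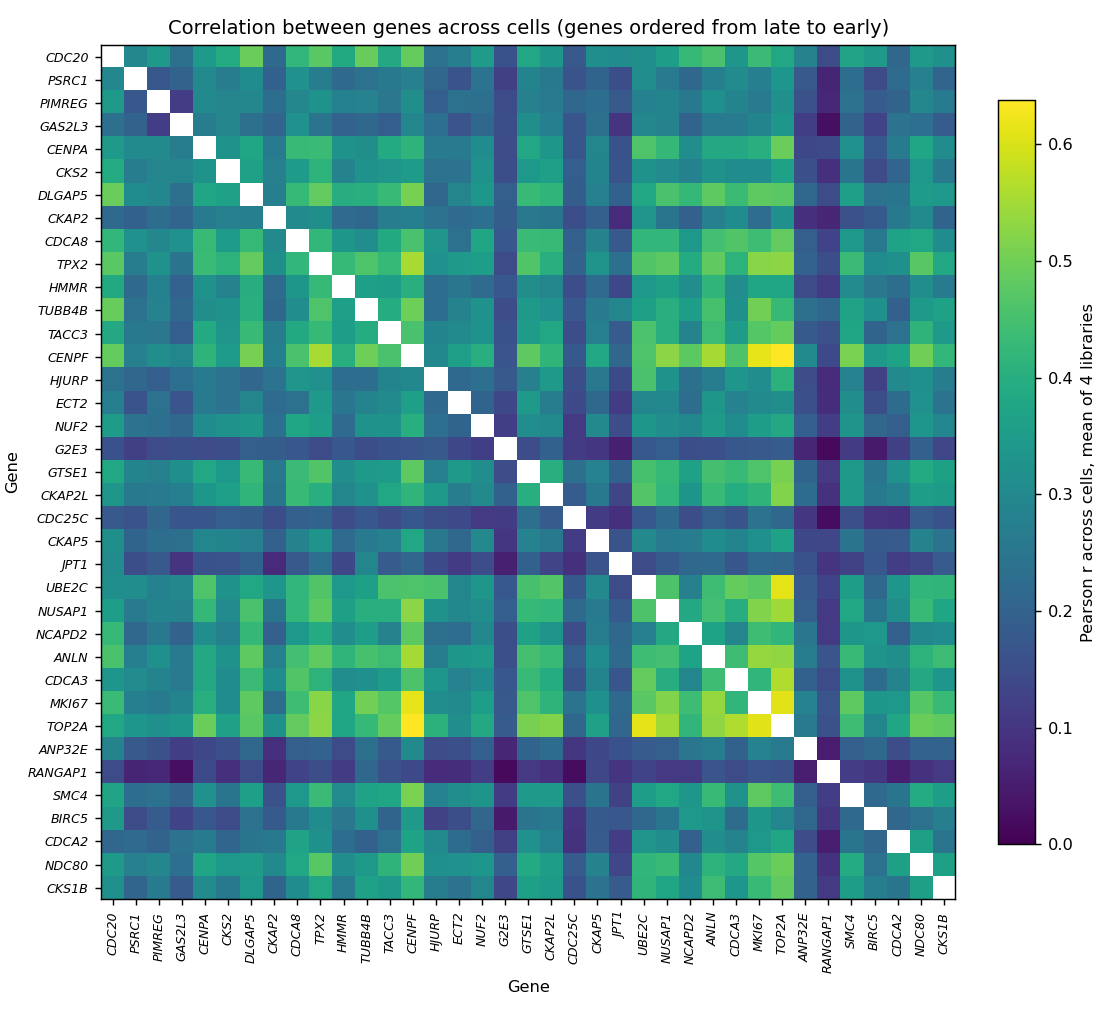
Pearson r across cells between each pair of the 37 genes, as the mean of 4 libraries on a colour scale from 0 to 0.64, with genes ordered from late to early. CENPF, MKI67, TOP2A and UBE2C form the brightest cells, and RANGAP1, G2E3, CDC25C and JPT1 form dark stripes.

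The share of cells with at least 1 molecule followed the levels. At 8000 identifiers a cell, MKI67 was detected in 76.9% and 76.4% of UT cells and 45.9% and 45.3% of IR cells (81.0%, 83.7%, 55.5% and 58.9% without thinning). CENPF was detected in 84.1% and 81.7% of UT cells and 54.5% and 56.5% of IR cells. CKS2 was detected in 74.5% and 81.5% of UT cells and 75.8% and 83.6% of IR cells, and JPT1 in 97.0% to 99.1% of cells in every library. CDC25C was the rarest, in 9.01% and 13.5% of UT and 4.33% and 6.03% of IR cells. In 33 of the 37 members both IR shares were below both UT shares, as they were for 20.1% of the 14647 genes tested. The 4 others were CKS2, GAS2L3, JPT1 and RANGAP1.

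The same comparison was then made within classes of cells. In anchor-high cells the members differed less, and 0 were called lower by edgeR, as were 0 (0%) of 10825 genes, and 0 higher, where 0.0277% were, 3 were lower at an unadjusted p under 0.05 (MKI67, ANP32E and CENPF), where 3.43% of genes were, and the median log2 fold change was -0.18. In those cells MKI67 stood at 824 and 612 CPM in UT and 507 and 386 CPM in IR, a log2 fold change of -0.69 (SE 0.23, adjusted p = 0.357 by edgeR), and 36 of the 37 members had a higher log2 fold change than over all cells, with RANGAP1 the exception. With the block MKI67 (adjusted p = 0.00884 by edgeR) and CENPF (adjusted p = 0.0479 by edgeR) were called, where 0.721% of genes were lower and 1.52% higher. The share of all genes with a higher log2 fold change than over all cells was not computed. Picking cells by genes that correlate with the members can itself bring their UT and IR levels closer. The number of anchor-high cells, 26 and 34 in IR, also limits this comparison.

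In low cells, a comparison added after the data were seen, 0 members were called without the block, where 0.513% of 13459 genes were lower and 0.899% higher, and 13 were lower at an unadjusted p under 0.05, where 7.13% of genes were. With the block 17 were lower and 1 was higher, against a background of 8.51% and 9.53%, and the median was -0.35. MKI67 had 251 and 147 CPM in UT low cells and 93.1 and 80.6 CPM in IR low cells, and CENPF 371 and 218 CPM against 133 and 135 CPM. Their log2 fold changes in low cells were -1.20 and -1.13. Both stood lower in each IR library, by more than in anchor-high cells, though the difference between classes was not tested. CDC20 (-0.90) and SMC4 (-0.85) came next. CKS2 was the member that was higher with the block, from 152 and 194 CPM in UT to 201 and 266 CPM in IR, a log2 fold change of 0.44 (SE 0.21, adjusted p = 0.366 without and 0.00181 with the block by edgeR). Low cells are defined by scores below a cut and can still hold cells at any stage, and the part of S or G2 cells just under the cut was not tested.

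**Figure D5:**
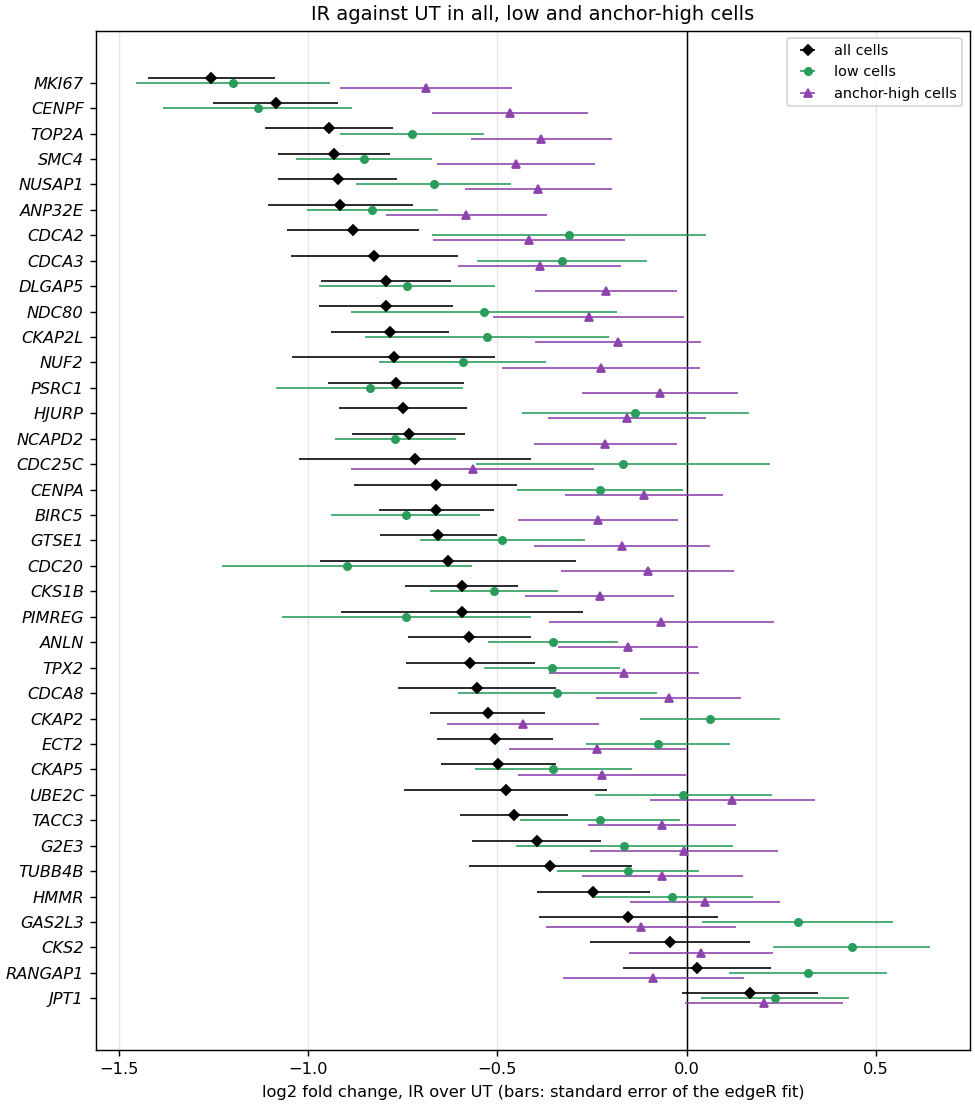
Log2 fold change of IR over UT for each gene in all cells (black diamonds), low cells (green circles) and anchor-high cells (purple triangles), with bars for the standard error of the edgeR fit (2 libraries a group). The triangles gather around a median of -0.18, whereas MKI67 and CENPF are below -1 in both all cells and low cells.

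Weighting the UT means of the 4 cell groups by the IR shares of the same experiment, also added after the data were seen, shows how far the shares alone would carry the members. On thinned means, the median log2 ratio of re-weighted UT over UT was -0.36, that of IR over UT was -0.61, and that of IR over re-weighted UT was -0.27. In both experiments, 23 members were lower in IR than in the re-weighted UT mean, 5 were higher and 9 had opposite signs. The same shares over all genes were not computed, so these counts describe the members alone. MKI67 (-1.06 and -0.81), CENPF (-0.98 and -0.59) and PSRC1 (-0.97 and -0.52) were furthest below. RANGAP1 (0.27 and 0.54), CKS2 (0.29 and 0.31), JPT1 (0.38 and 0.13), HJURP (0.27 and 0.04) and G2E3 (0.17 and 0.09) were the 5 above. RANGAP1, CKS2 and JPT1, which kept their level over all cells, thus lay above the re-weighted mean in both experiments. GAS2L3 had 1.01 and -0.04, and MKI67 and CENPF were below in both. The groups are coarse, and shifts of cells within a group, such as the low cells, were not tested.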

How the data were processed

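Single-cell libraries came from 4 samples, grouped by the treatment and experiment in their titles. The authors mapped reads to GRCh38 with STARsolo (the submitters' notes also name Seurat 5) and deposited one matrix per library of expected counts: about 99.9% of values in each library lie on the correction that turns observed molecular identifiers into molecules for 4096 sequences of 6 bases. The design assumed plain counts, so the deposited expected counts were summed per library and rounded. Handling of strand is not given in the sources used here, and 14 members overlap a coding or lncRNA gene on the other strand. The 92 spike-ins were left out.

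Tests used edgeR 4.0.16 in R 4.3.3 (filterByExpr, TMM, robust quasi-likelihood F test, group alone, Benjamini-Hochberg over all genes tested, threshold 0.05). Each group had 2 libraries with 2 residual degrees of freedom, so p-values reflect only how these libraries vary. The titles mark a shared experiment, and deviations from group means correlated at 0.635 within experiments, so the numbers pair the libraries. The block left 1 residual degree of freedom and lowered the biological coefficient of variation from 0.177 to 0.0727. Both fits were also run on simulated data for the same comparison. Every gene was given the same coefficient of variation, that of the fit being checked, and differences were set only in genes with higher counts. Without the block (14556 genes), edgeR found 57% of the differences set at 2-fold and 100% of those set at 4-fold. With the block (14583 genes) these shares were 97% and 100%. False calls numbered 6 without the block and 13 with it. These values rest on the variation that each fit assumed, so they do not show whether its calls on the real libraries hold.

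All 37 members are named. Values per library are given for the 8 most and 6 least reduced, those called, and the 5 highest and 5 lowest late over early ratios. Members and lists were chosen with earlier results of these data known. Alternatives covered normalization, filter, tool, block, left-out libraries, scaling, thinning and cut. Python 3.11.15 was used for scores, thinning and promoters.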

Additional observations from a re-analysis of the deposited data

Results flagged for a closer look

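For 3 genes the difference between IR and UT had one sign in low cells of both experiments and the opposite sign in anchor-high cells of both. The share of all genes that met this rule was not computed, and unrelated signs would also meet it for some genes. CKAP2 had log2 fold changes of 0.000765 and 0.13 in low cells and -0.62 and -0.25 in anchor-high cells, a gap of 0.49 between the fitted values. It met the rule only through that first value, which is close to 0. GAS2L3 had 0.44 and 0.16 in low cells and -0.18 and -0.10 in anchor-high cells, a gap of 0.41. RANGAP1 had 0.31 and 0.34 in low cells and -0.03 and -0.13 in anchor-high cells, a gap of 0.41. These differences were not tested, and none of the fitted values passed the threshold in either class.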

How the results depend on the processing

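Members called lower numbered 5. With the replicate block there were 32, with no filter 22, with DESeq2 12, with scaling per cell 1 and with per-cell scaling and replicate block together 9. Over all genes, the main fit called 124 of 14647 lower. In the same order, the other settings called 1883 of 14647, 584 of 26020, 216 of 13913, 47 of 14647 and 277 of 14647. The number of members thus moved along with the number of all genes called. With 1 library left out, fewer members and fewer of all genes were called lower. The median log2 fold change of -0.66 became -0.11 under per-cell scaling, with or without the block, -0.27 against UT group means weighted by the IR shares, and -0.76 to -0.56 with 1 library left out. DESeq2 size factors and observed identifiers left 5 members called and equal cells 4, without TOP2A (adjusted p = 0.0522 by edgeR). Over all genes, the first 2 settings each called 124 of 14647 lower and equal cells 65 of 14331. Anchor-high cells gave 2 calls with the replicate block in place of 0. Low cells gave 17 with the replicate block and 0 to 3 with 1 library left out. At the 90th percentile anchor-high cells made up 9.31% and 10.7% of UT cells against 2.60% and 4.31% of IR cells. Members higher in the later part of anchor-high cells numbered 13, 0 at the 90th percentile, 32 with 4 groups of cells, and 14 to 31 with 1 library left out. Shares of all genes were not computed at the 90th percentile or with 1 library left out. The cause of these changes was not tested, and some settings also leave fewer samples or cells.

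Signs turned under per-cell scaling, which lifts all genes, for 10 members: TACC3 0.087, CKAP5 0.044, CKAP2 0.018, HMMR 0.30, TUBB4B 0.18, GAS2L3 0.38, CKS2 0.49, UBE2C 0.066, G2E3 0.14 and ECT2 0.027. With the block added to it they were 0.088, 0.045, 0.016, 0.30, 0.17, 0.40, 0.50, 0.037, 0.15 and 0.036. With 1 library left out, RANGAP1 ran from -0.15 to 0.23, GAS2L3 from -0.40 to 0.15, CKS2 from -0.26 to 0.18 and JPT1 from -0.014 to 0.32.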
